A study of Homo sapiens with 48 samples.

Results

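Transcripts of 44 genes of DNA replication and of entry into S phase were followed in 22Rv1 prostate cancer cells and 5 derivatives of them. The genes were chosen by symbol, from a list of replication and G1/S genes, out of 61815 genes with an Ensembl identifier in the count table; 20009 genes had enough counts to be tested, and all 44 were among them. By role, 10 of the genes license origins, 6 activate the helicase, 5 are the sliding clamp and parts of its loader, 8 are polymerase and primase subunits, 2 mature the lagging strand, 4 supply nucleotides, 4 are G1/S regulators and 5 act in chromatin assembly, maintenance or repair.

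22Rv1 is an established cell line of castration-resistant prostate cancer. The parental line is called Rv1-WT here, and Rv1-Luc was made from it with a lentivirus that carries firefly luciferase. The 4 dKO lines descend from 22Rv1 cells in which the Mediator kinase genes CDK8 and CDK19 were both knocked out by CRISPR/Cas9: dKO-8 and dKO-19 re-express the human wild-type kinase of that number, while a kinase-dead mutant of it was put into dKO-8M and dKO-19M, so that all 4 share the double knockout. The kinases were put back by lentivirus, each in a line of its own; the CDK8 lines were made from cells that already carried an empty vector, and the CDK19 lines directly from the knockout cells. The culture medium of Rv1-WT and Rv1-Luc held either fetal bovine serum (FBS) or serum from which charcoal had removed steroids such as androgen (CSS, charcoal-stripped); the dKO lines were grown in FBS. Every line and medium was treated for 72 hours with 500 nM SNX631, an inhibitor of both kinases, or with 0.1% DMSO as vehicle, in 3 cultures each, which gave 16 groups and 48 libraries.

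DNA replication is prepared in G1, when the origin recognition complex (ORC1 and ORC6 are subunits), CDC6 and CDT1 load the ring of MCM2 to MCM7 onto origins. At the start of S phase MCM10, CDC45 and the GINS complex turn that ring into a running helicase, and the polymerases, held on DNA by the PCNA clamp, copy the strands. Much of this machinery is transcribed by E2F factors once these are released from the RB protein family, so the transcripts rise together as cells leave G1. CDK8 and CDK19 are alternative kinases of the Mediator complex, which links transcription factors to RNA polymerase II.

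E2F factors bind DNA words of the form written here as TTTCCCGC, TTTCGCGC, TTTGCCGC and TTTGGCGC. These 4 words were searched on both strands, with overlapping matches counted apart, in RefSeq promoter windows of GRCh38.p14 that run from 250 bases before to 50 bases after a transcription start. Of the 44 genes, 39 had at least 1 window, and 20 of these (51.3%) held an E2F word, against 3.99% of the 27305 genes with a window. The CCAAT box was present in 22 of the 39 (56.4%), against 39.7% of all genes. The 160 bases before the start are printed for 6 of the genes, with the E2F words in capitals. MCM6, LIG1, PCNA and E2F1 stand for the genes that fell in CSS medium in Rv1-WT, CDT1 for those that fell with SNX631, and RFC3 for a gene with an E2F word that did not fall in CSS.
MCM6 (chr2:135876444-135876603, - strand): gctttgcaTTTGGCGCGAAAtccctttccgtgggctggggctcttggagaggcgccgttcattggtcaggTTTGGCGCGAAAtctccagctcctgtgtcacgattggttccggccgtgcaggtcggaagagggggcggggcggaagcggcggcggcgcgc
LIG1 (chr19:48170345-48170504, - strand): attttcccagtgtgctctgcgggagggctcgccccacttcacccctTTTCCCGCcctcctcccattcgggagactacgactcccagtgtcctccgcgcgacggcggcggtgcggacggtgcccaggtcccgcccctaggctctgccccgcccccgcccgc
PCNA (chr20:5126623-5126782, - strand): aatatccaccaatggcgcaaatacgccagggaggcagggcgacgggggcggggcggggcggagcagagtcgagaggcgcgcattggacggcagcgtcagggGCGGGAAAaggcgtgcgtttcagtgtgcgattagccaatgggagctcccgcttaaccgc
E2F1 (chr20:33686386-33686545, - strand): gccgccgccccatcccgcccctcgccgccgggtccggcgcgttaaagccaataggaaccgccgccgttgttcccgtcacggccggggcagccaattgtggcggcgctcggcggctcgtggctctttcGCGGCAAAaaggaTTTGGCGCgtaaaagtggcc
CDT1 (chr16:88803629-88803788, + strand): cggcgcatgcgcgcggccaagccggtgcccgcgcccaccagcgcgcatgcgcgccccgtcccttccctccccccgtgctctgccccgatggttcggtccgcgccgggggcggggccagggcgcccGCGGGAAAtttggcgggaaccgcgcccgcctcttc
RFC3 (chr13:33817989-33818148, + strand): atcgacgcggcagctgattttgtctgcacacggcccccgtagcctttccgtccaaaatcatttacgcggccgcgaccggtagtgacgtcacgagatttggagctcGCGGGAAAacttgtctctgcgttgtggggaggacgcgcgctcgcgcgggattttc
In MCM6 the words came as overlapping pairs, one on each strand, with first bases at -152 and -148 and again at -90 and -86 from the start. LIG1 held 1 word at -114, PCNA at -59, RFC3 at -55 and CDT1 at -35, and E2F1 held 2, at -33 and -20. All positions are relative to the RefSeq start. Of the 39 genes, 34 had a window whose last bases were found in the early part of a GENCODE transcript of the gene. Such a match need not place the start at the first base of that transcript. The window printed for CDT1 had no such match. A match describes the letters in the window and not a bound site.

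Library totals ran from 13231860 to 31496134 counts. Levels are given as counts-per-million (CPM) values scaled by edgeR's TMM factors, and every group has 3 libraries, listed in the order of their replicate numbers. Between the 3 libraries of a group the coefficient of variation of a member had a median of 2.94% and was at most 16.4%, for CCNE2 in Rv1-WT in CSS with SNX631. Of the markers of luminal prostate cells, KRT8 lay between 442 and 3247 CPM, KRT18 between 401 and 779 CPM and HOXB13 between 160.3 and 329 CPM over the 48 libraries, while other markers of the same list were lower or varied more: KLK3 at 0.392 to 11.9 CPM, KLK2 at 0.313 to 19.4 CPM, TMPRSS2 at 4.35 to 47.6 CPM, FOLH1 at 4.80 to 569.9 CPM and EPCAM at 76.5 to 114 CPM. Markers of basal, endothelial and white blood cells summed to at most 3.04 CPM, while fibroblast markers reached 28.3 CPM in Rv1-WT and plasma cell markers 26.4 CPM in Rv1-Luc, against at most 0.224 CPM in Rv1-WT. The transcript of the kinase put back stood above its Rv1-WT level in each dKO line. Under vehicle the mean for CDK8 was 68.7 CPM in dKO-8 and, with the mutant, 122.7 CPM, against 26.8 CPM in Rv1-WT. The mean for CDK19 was 510.4 CPM with the wild-type kinase put back and 332.0 CPM with its mutant, against 149 CPM in Rv1-WT. Transcript of the kinase that was not put back was still counted near its Rv1-WT level. CDK8 stood at 27.7 CPM with wild-type CDK19 and at 27.2 CPM with mutant CDK19. CDK19 stood at 103 CPM in dKO-8 and, with the mutant, 123 CPM. These counts therefore do not check the knockout. How much of the CDK8 count in dKO-8 came from the knocked-out gene was not tested. For CDK8 the protein level differed from the transcript: on Western blots the paper found less CDK8 in dKO-8 than parental cells had. For CDK19 both were higher, as the paper found far more of the protein in both lines given that kinase. Replicate 1 of vehicle-treated dKO-19M stood apart from its group. Its counts differed from those of another replicate by a chi-square of up to 16.5 relative to the degrees of freedom, where the median of all 48 replicate pairs was 2.04. In vehicle-treated Rv1-Luc in FBS the value was 9.15 between replicates 1 and 2, 4.88 between 1 and 3 and 3.10 between 2 and 3.

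CSS medium lowered most of the genes in Rv1-WT and few in Rv1-Luc. In FBS, SNX631 lowered CDT1, PRIM1, RRM2 and MCM7 in every line with an active kinase, and MCM7 also in dKO-19M. In the fit to all libraries, few SNX631 effects differed in direct tests of the active against the kinase-dead lines, and that on MCM7 was not among them. Differences are log2 fold changes (FC), negative where the first-named condition is lower. A gene is said to rise or fall at a false discovery rate (FDR) under 0.05 by edgeR's quasi-likelihood F-test, with Benjamini-Hochberg adjustment over all 20009 genes, and is said to be called at FDR under 0.01 with FC over 1.5, the cutoffs the study used. Beside each count of members stands the percentage of all tested genes that passed in the same direction.

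**Figure D1:**
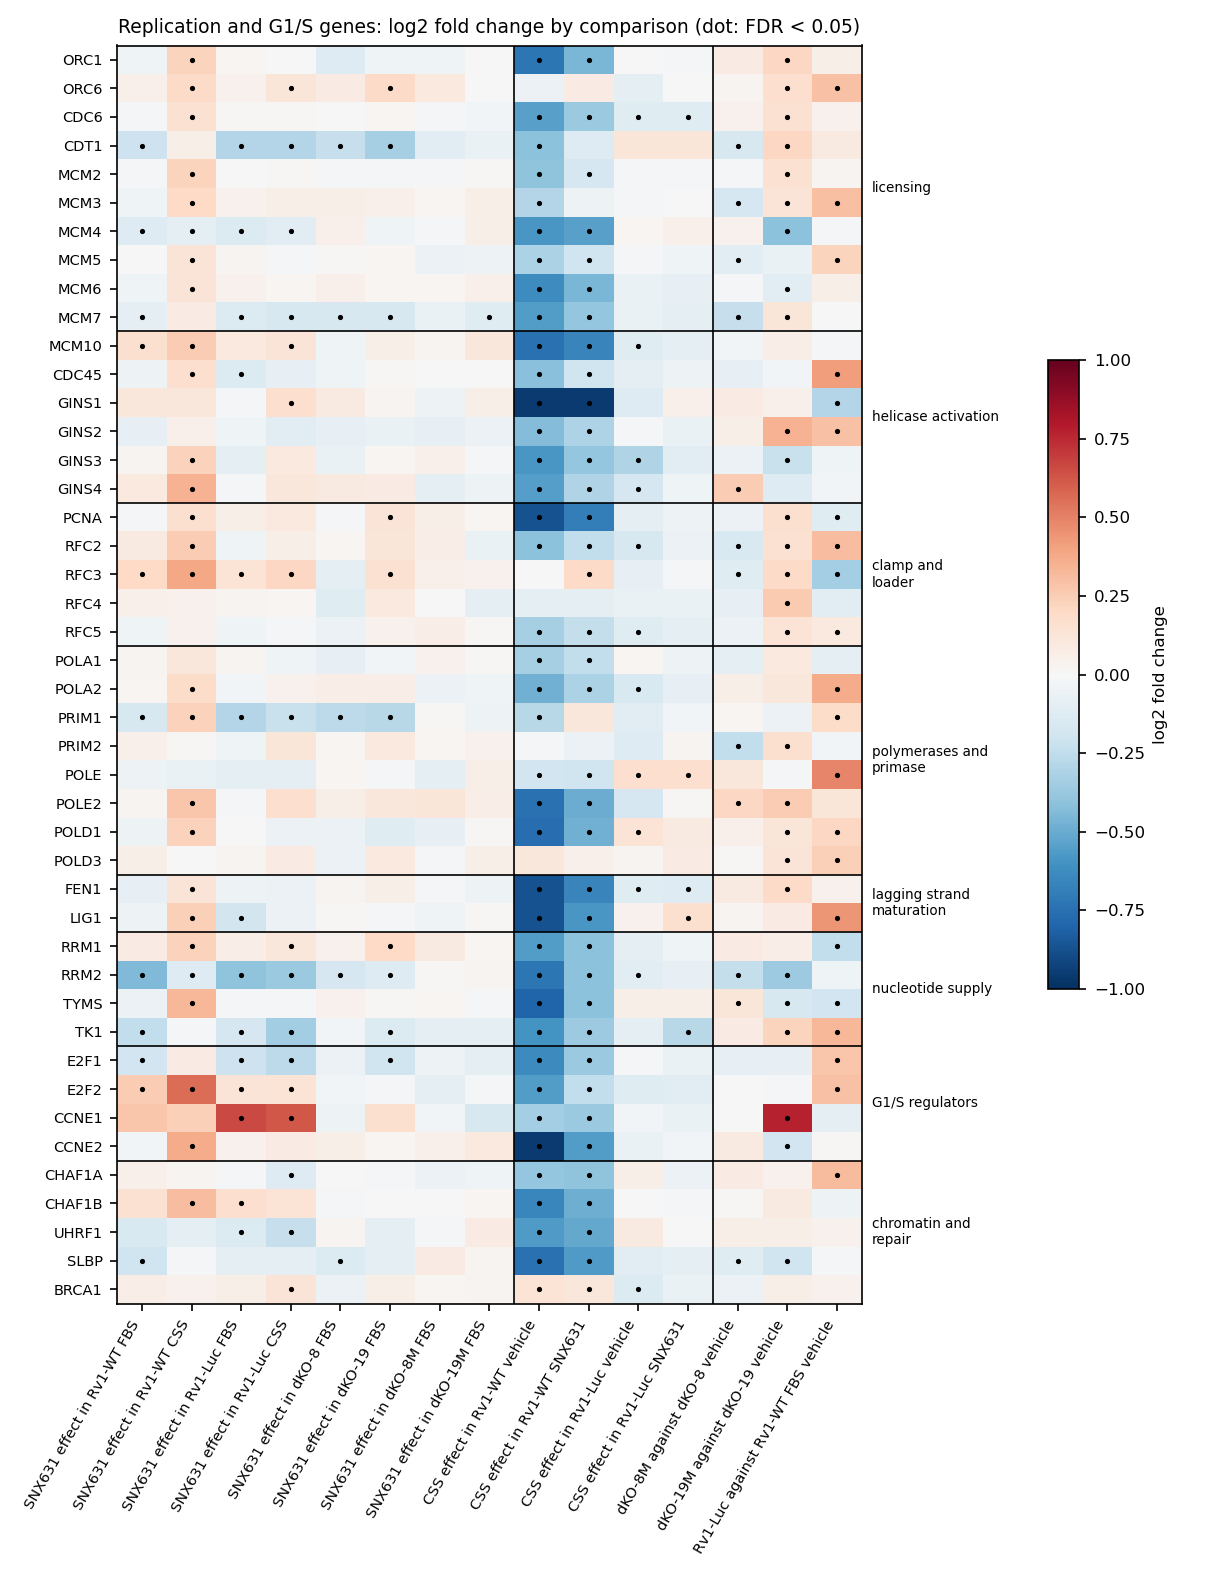
Log2 fold change of each of the 44 genes (rows, grouped by role) in the 15 comparisons of 2 groups (columns: 8 SNX631 effects, 4 CSS effects, 3 between lines), blue lower and red higher, with a dot at FDR under 0.05. In the column for CSS in Rv1-WT under vehicle 38 of the 44 genes carry a dot and a negative value, and in the column for SNX631 in dKO-8M none carries a dot.

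Growth in CSS asks what androgen-depleted serum does to these genes. The media also differed in seeding density, which was higher in CSS, and cells had spent a passage in CSS before, so that serum, density and the earlier passage cannot be told apart. In bulk RNA, a smaller share of cells in S phase and less transcript per cell cannot be told apart either. In vehicle-treated Rv1-WT, 38 of the 44 genes fell (background 23.1%) and 1 rose (background 21.8%). The median change of the members was -0.56, and 16 genes were called lower (background 4.78%). All 38 kept FDR under 0.05 when any single library was left out, except CCNE1, which lost it without FBS replicate 3 (FDR 0.066), CSS replicate 2 (0.064) or CSS replicate 3 (0.0933).

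The 2 genes of lagging strand maturation and the clamp were among the strongest. PCNA, the sliding clamp, stood at 425, 429 and 438 CPM in FBS and at 229, 238 and 241 CPM in CSS (log2 FC -0.87 ± 0.045 SE, FDR 6.44e-24). FEN1, the nuclease that trims Okazaki fragments, went from 166, 169 and 174 CPM to 90.9, 91.2 and 96.1 CPM (log2 FC -0.87 ± 0.044 SE, FDR 1.38e-24). LIG1, the ligase that joins them, went from 117, 117 and 122 CPM to 61.8, 67.5 and 65.8 CPM (log2 FC -0.87 ± 0.046 SE, FDR 9.85e-24). In all 3 genes every CSS library lay below every FBS library with a wide gap. The clamp loader behaved less evenly: RFC2 fell by 0.41 and RFC5 by 0.33 on the log2 scale, while RFC4 (-0.09) and RFC3 (-0.00) did not pass the test.

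All 6 genes of helicase activation fell, by 0.42 (CDC45) to 0.96 (GINS1) on the log2 scale. GINS1, a subunit of the GINS complex, stood at 63.3, 63.2 and 67.2 CPM in FBS and at 33.9, 34.02 and 32.1 CPM in CSS (log2 FC -0.96 ± 0.052 SE, FDR 6.62e-23). MCM10 fell by 0.75, GINS3 by 0.58, GINS4 by 0.55 and GINS2 by 0.43. Of the 10 licensing genes 9 fell, ORC1 the most (-0.72) and MCM3 the least (-0.29). Within the MCM ring the changes were -0.63 for MCM6, -0.58 for MCM4, -0.56 for MCM7, -0.40 for MCM2 and -0.32 for MCM5, with standard errors of 0.033 to 0.042. The loaders CDC6 (-0.54) and CDT1 (-0.41) fell too, and ORC6 (-0.06) did not pass.

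The nucleotide supply genes fell as a group of 4 of 4. TYMS, thymidylate synthase, stood at 248, 253 and 260.3 CPM in FBS and at 139, 146 and 151 CPM in CSS (log2 FC -0.80 ± 0.042 SE, FDR 1.11e-23). RRM2, the small subunit of ribonucleotide reductase, went from 357, 348 and 356 CPM to 199.6, 223 and 221 CPM (log2 FC -0.72 ± 0.040 SE, FDR 1.36e-22), TK1 fell by 0.60 and RRM1 by 0.56. Among the polymerase and primase subunits 6 of 8 fell, led by POLD1 (-0.76), the catalytic subunit of polymerase delta, and POLE2 (-0.75). POLA2 fell by 0.48, POLA1 by 0.33, PRIM1 by 0.28 and POLE by 0.19, and PRIM2 (-0.02) and POLD3 (0.11) did not pass.

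The G1/S regulators also fell, 4 of 4. CCNE2, cyclin E2, stood at 49.4, 55.4 and 54.5 CPM in FBS and at 28.1, 24.6 and 29.02 CPM in CSS (log2 FC -0.96 ± 0.071 SE, FDR 1.47e-17), which left the 2 groups far apart. E2F1 went from 130.2, 120.4 and 139 CPM to 85.2, 74.4 and 90.3 CPM (log2 FC -0.64 ± 0.054 SE, FDR 2.99e-15), E2F2 fell by 0.56 and CCNE1, cyclin E1, by 0.34. Of the chromatin and repair genes 4 fell: SLBP, which binds the stem-loop of histone messages, by 0.75, the chromatin assembly subunits CHAF1B and CHAF1A by 0.65 and 0.39, and UHRF1, which keeps DNA methylation through replication, by 0.57. BRCA1, a homologous recombination gene, was the 1 member that rose, from 174, 177 and 171 CPM to 195, 193 and 188 CPM (log2 FC 0.14 ± 0.046 SE, FDR 0.00952). The 5 members that did not pass, ORC6, RFC3, RFC4, PRIM2 and POLD3, thus came from 3 different roles. Among the 39 genes with a promoter window, the median CSS change was -0.56 for the 20 with an E2F word (-0.96 to -0.00) and -0.42 for the 19 without (-0.87 to 0.14), so that both kinds covered nearly the same range.

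With SNX631 in both media, CSS lowered 35 of the 44 genes in Rv1-WT (background 21.1%) and raised 2 (background 19.5%), with a median change of -0.37. The genes called lower (background 2.97%) were 4 in number, namely GINS1 (-0.96), PCNA (-0.69), FEN1 (-0.66) and MCM10 (-0.66). The 2 that rose were RFC3 (0.19) and BRCA1 (0.11). CDT1 (-0.13), MCM3 (-0.05) and PRIM1 (0.11), which fell in CSS under vehicle, did not pass here. BRCA1 lost FDR under 0.05 without FBS replicate 1 (FDR 0.102), FBS replicate 3 (0.105), CSS replicate 2 (0.0737) or CSS replicate 3 (0.137), and CCNE1 (-0.37) without FBS replicate 3 (0.0916).

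In Rv1-Luc the same change of medium moved the genes little. Under vehicle 10 fell (22.7% of the members, background 6.67%) and 2 rose (background 7.33%), with a median change of -0.08 and no gene called at the study cutoffs. GINS3 fell the most, from 55.2, 52.7 and 52.99 CPM to 42.1, 44.4 and 44.2 CPM (log2 FC -0.30 ± 0.052 SE, FDR 1.99e-05), and it alone kept FDR under 0.05 whichever library was left out. GINS4 (-0.17), RFC2 (-0.16), POLA2 (-0.15), BRCA1 (-0.14), MCM10, RFC5, FEN1 and CDC6 (each -0.12) and RRM2 (-0.11) also fell, and POLE (0.17) and POLD1 (0.14) rose. The count of 12 shrank to 4 without FBS replicate 3, to 5 without CSS replicate 2 and to 3 without CSS replicate 3. PCNA stood at 387, 406 and 398 CPM in FBS and at 387, 360.2 and 369.6 CPM in CSS, where the groups touch, and CCNE2 at 51.1, 54.9 and 53.9 CPM and 51.4, 49.4 and 51.4 CPM, where they overlap. With SNX631 in both media 3 genes fell, namely TK1 (-0.28), FEN1 (-0.13) and CDC6 (-0.12) (background 6.61%), and LIG1 (0.16) and POLE (0.17) rose (background 6.08%). That count of 5 was 3 without FBS SNX631 replicate 2 or 3 or CSS SNX631 replicate 3 and 1 without CSS SNX631 replicate 2.

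**Figure D2:**
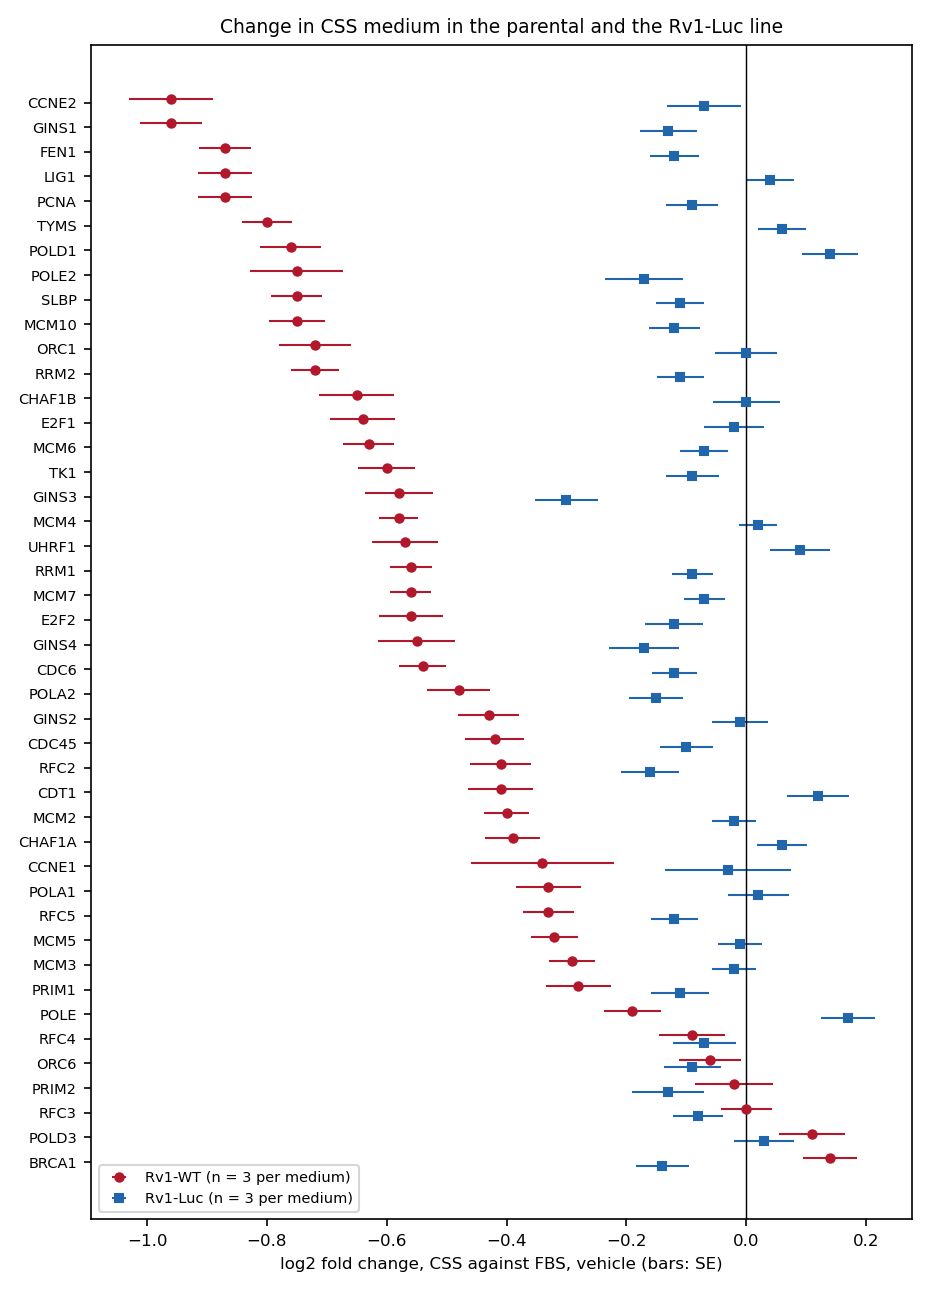
Log2 fold change in CSS against FBS under vehicle (x axis) for each of the 44 genes (y axis, ordered by the value in Rv1-WT), as red circles for Rv1-WT and blue squares for Rv1-Luc, with bars of 1 SE and 3 libraries per medium and line. The Rv1-WT values run from -0.96 to 0.14 and the Rv1-Luc values from -0.30 to 0.17.

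The difference between the lines was tested directly. The CSS effect was less negative in Rv1-Luc than in Rv1-WT in 36 of the 44 genes (background 18.7%) and more negative in 1, BRCA1 (background 15.4%). The median difference was 0.44. POLD1 and LIG1 differed the most, by 0.90 ± 0.069 SE and 0.90 ± 0.061 SE, and all 37 differences passed when any of the 12 libraries was left out. The lines were prepared as separate cultures, and the plasma cell markers, higher in Rv1-Luc than in Rv1-WT, as well as the depth, at most 18202460 counts in Rv1-WT and at least 19524225 in Rv1-Luc, run along with this difference; their part in it was not tested.

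**Figure D3:**
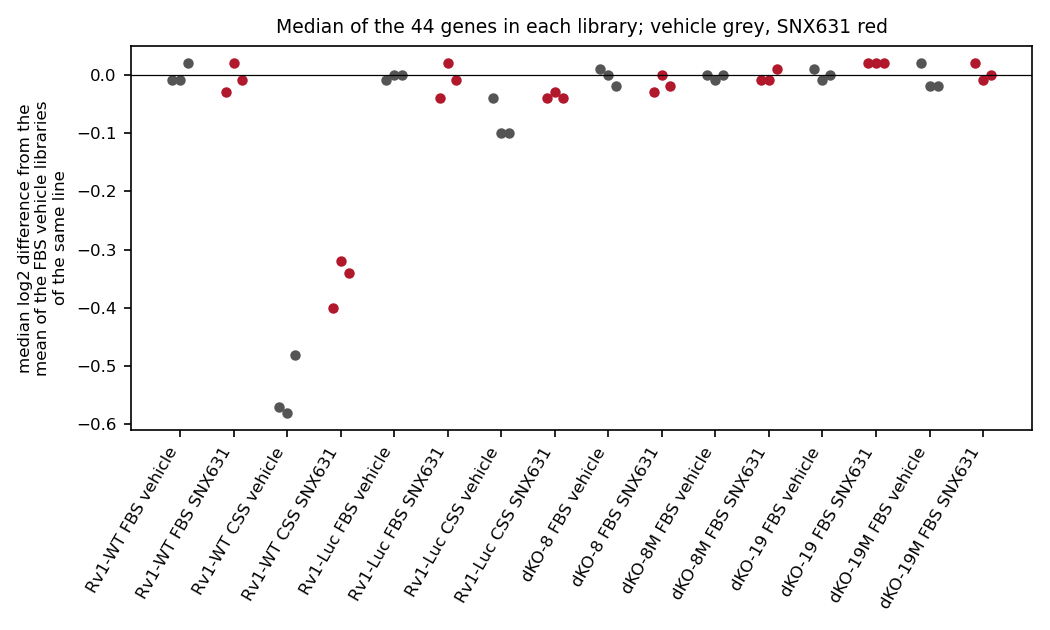
Median over the 44 genes of the log2 difference between each library and the mean of the vehicle-treated FBS libraries of its own line (y axis), for the 48 libraries by group (x axis), vehicle in grey and SNX631 in red. The 3 Rv1-WT libraries in CSS under vehicle lie between -0.58 and -0.48 and those with SNX631 between -0.40 and -0.32, while all libraries of the other lines lie between -0.10 and 0.02.

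SNX631 in FBS addresses what loss of Mediator kinase activity does to these genes. In Rv1-WT 8 genes fell (background 6.79%) and 3 rose (background 7.68%), and the median change of the members was -0.02. In Rv1-Luc 10 fell (background 9.45%) and 4 rose (background 10.9%), with a median of -0.01. In dKO-8, where CDK8 alone was put back, 5 fell (background 7.39%) and 0 rose (background 6.13%), and at an unadjusted p under 0.05 these counts were 8 and 0; DESeq2 also gave 5 and 0. In dKO-19 6 fell (background 11.3%) and 4 rose (background 9.31%), a split that became 4 and 11 when libraries were scaled by their total counts alone. As a share of the members the falls came to 18.2% for Rv1-WT, 22.7% for Rv1-Luc, 11.4% for dKO-8 and 13.6% for dKO-19. The shares for dKO-8 and dKO-19 were near their backgrounds. CDT1, PRIM1, RRM2 and MCM7 fell in each of these 4 settings.

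CDT1, which loads the MCM ring, fell in 5 of the 8 SNX631 comparisons. In Rv1-WT it stood at 151, 135 and 155 CPM under vehicle and at 132, 125 and 124 CPM with SNX631 (log2 FC -0.21 ± 0.055 SE, FDR 0.00352). In Rv1-Luc the values were 156, 159 and 155 CPM and 133, 129 and 122 CPM (log2 FC -0.29 ± 0.052 SE, FDR 1.74e-05). In these and in the dKO lines with an active kinase, each SNX631 library lay below each vehicle library. In dKO-8 they were 166, 173 and 164 CPM and 137, 149.6 and 141 CPM (log2 FC -0.23 ± 0.052 SE, FDR 9.65e-04), and in dKO-19 197, 183 and 170.5 CPM and 149, 144 and 144 CPM (log2 FC -0.33 ± 0.052 SE, FDR 9.74e-07). With a kinase-dead enzyme CDT1 did not pass, at -0.11 ± 0.052 SE in dKO-8M and -0.07 ± 0.051 SE in dKO-19M, although the libraries did not overlap in dKO-8M. These 4 falls passed in every fit that left out a single library.

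RRM2 had the largest fall in the parental background. In Rv1-WT it went from 357, 348 and 356 CPM to 259, 269.9 and 255 CPM (log2 FC -0.44 ± 0.040 SE, FDR 4.25e-13) and in Rv1-Luc from 325, 347 and 358 CPM to 253, 260.4 and 266 CPM (log2 FC -0.40 ± 0.039 SE, FDR 2.01e-12). The groups did not overlap in either line. In the dKO lines the change was smaller: -0.17 ± 0.039 SE in dKO-8 (FDR 9.63e-04) and -0.13 ± 0.039 SE in dKO-19 (FDR 0.0127), with 0.01 and 0.03 in the kinase-dead lines. The fall in dKO-19 did not pass without vehicle replicate 2 (FDR 0.0525) or SNX631 replicate 3 (FDR 0.058), nor with libraries scaled by total counts.

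PRIM1, the catalytic subunit of primase, fell in both dKO lines with an active kinase. In dKO-8 it stood at 68.9, 66.8 and 66.8 CPM under vehicle and at 57.5, 53.8 and 57.6 CPM with SNX631 (log2 FC -0.26 ± 0.049 SE, FDR 5.61e-05), while in dKO-8M the values were 68.99, 69.8 and 67.03 CPM and 67.9, 68.03 and 71.7 CPM (log2 FC 0.01). In dKO-19 they were 71.8, 72.4 and 75.04 CPM and 61.7, 59.8 and 59.05 CPM (log2 FC -0.28 ± 0.049 SE, FDR 8.13e-06), and in dKO-19M 75.1, 68.9 and 66.5 CPM and 67.9, 68.7 and 67.2 CPM (log2 FC -0.05). Fractional counts stood in over 50% of the libraries for 7 members, namely BRCA1 (91.7%), POLA2 (83.3%), PRIM1 (81.2%), POLD3 (64.6%), MCM7 (58.3%), CHAF1B (56.2%) and FEN1 (52.1%); where the fractions come from was not tested. The active lines parted completely and the kinase-dead ones overlapped. PRIM1 also fell in Rv1-Luc (-0.29) and in Rv1-WT (-0.16), the latter only with all libraries or without vehicle replicate 1; leaving out any of the other 5 gave -0.17 to -0.14 with an FDR of 0.062 to 0.144.

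MCM7 changed by small, precise amounts: -0.10 in Rv1-WT, -0.14 in Rv1-Luc and -0.16 in each of dKO-8 and dKO-19, with a standard error of at most 0.034. In Rv1-WT it missed the threshold when any of the 6 libraries was left out (-0.11 to -0.09, FDR 0.0552 to 0.122). TK1, thymidine kinase of the salvage pathway, fell in Rv1-WT (log2 FC -0.25 ± 0.047 SE, FDR 7.40e-05), Rv1-Luc (-0.17) and dKO-19 (-0.14) and was at -0.03 in dKO-8. Its fall in dKO-19 did not pass without vehicle replicate 1 (FDR 0.191), SNX631 replicate 1 (FDR 0.0906) or SNX631 replicate 2 (FDR 0.0582), nor with libraries scaled by total counts. E2F1 fell in Rv1-WT (-0.19), Rv1-Luc (-0.21) and dKO-19 (-0.20), with FDR 0.116 in Rv1-WT without vehicle replicate 3, and stood at -0.06 in dKO-8. SLBP fell in Rv1-WT (-0.20) and dKO-8 (-0.14; not without vehicle replicate 1 (FDR 0.118) or SNX631 replicate 3 (FDR 0.137)). MCM4 fell in Rv1-WT (-0.13; FDR 0.0528 without SNX631 replicate 1) and Rv1-Luc (-0.14). LIG1 (-0.18), CDC45 (-0.14) and UHRF1 (-0.14) fell in Rv1-Luc, CDC45 and UHRF1 not in every fit without a library.

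Among the genes that rose with SNX631 in FBS, CCNE1 in Rv1-Luc was the only one called (background 2.32%). As a share of the members the rises came to 6.8% for Rv1-WT, 9.1% for Rv1-Luc and 9.1% for dKO-19, each under its background, as was the share of the 1 called gene. CCNE1 stood at 7.57, 7.55 and 7.49 CPM under vehicle and at 11.6, 11.6 and 12.5 CPM with SNX631 (log2 FC 0.66 ± 0.098 SE, FDR 2.76e-07). The groups were well apart. In Rv1-WT the values were 7.58, 8.10 and 8.37 CPM and 9.47, 8.56 and 10.8 CPM (log2 FC 0.28 ± 0.11 SE, FDR 0.0965), also without overlap, and the difference between the lines was 0.39 ± 0.15 SE (FDR 0.234). In dKO-8 (-0.05) and dKO-19 (0.16) it did not pass. E2F2 rose in Rv1-WT (0.25) and Rv1-Luc (0.13), RFC3 in Rv1-WT (0.20), Rv1-Luc (0.14) and dKO-19 (0.15), MCM10 in Rv1-WT (0.16), CHAF1B in Rv1-Luc (0.17), and RRM1 (0.20), ORC6 (0.19) and PCNA (0.13) in dKO-19. In Rv1-Luc the rises of E2F2, RFC3 and CHAF1B, and in dKO-19 those of PCNA and RFC3, were lost in some fits without a library, E2F2 in 4 of 6, CHAF1B in 4 and PCNA in 6. Between Rv1-Luc and Rv1-WT no SNX631 effect in FBS differed in edgeR's test (0 lower, background 0.555%; 0 higher, background 0.93%); at an unadjusted p under 0.05 there was 1 in each direction, and DESeq2 gave 0.

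**Figure D4:**
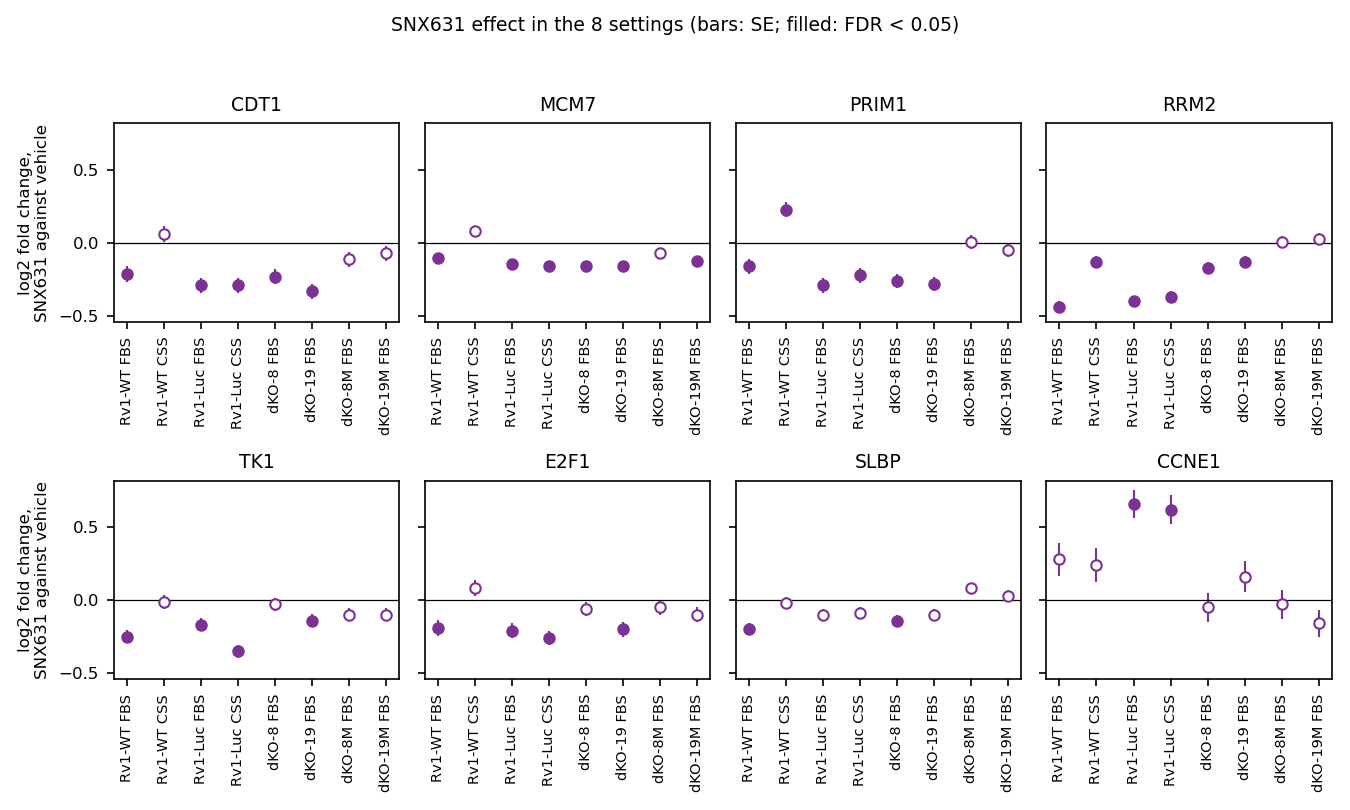
Log2 fold change with SNX631 against vehicle (y axis) for 8 of the genes in the 8 lines and media (x axis), with bars of 1 SE, 3 libraries per group, and filled points at FDR under 0.05. CDT1, MCM7, PRIM1 and RRM2 have filled points below 0 in the FBS settings of Rv1-WT, Rv1-Luc, dKO-8 and dKO-19. MCM7 is also filled below 0 in dKO-19M, and CCNE1 has filled points above 0 in Rv1-Luc only.

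The kinase-dead lines serve as the control for effects of SNX631 that do not pass through the 2 kinases. In dKO-8M 0 genes fell (background 0.275%) and 0 rose (background 0.21%) by edgeR. By the same test 5 and 2 had an unadjusted p under 0.05, and DESeq2 gave 0. Fitted to the compared libraries only, edgeR gave 5 lower and 1 higher in dKO-8M, and 0 in dKO-19M. In dKO-19M 1 gene fell (background 1.49%) and 0 rose (background 0.92%); at an unadjusted p under 0.05 the counts were 3 and 1, and DESeq2 gave 1 and 0. The 1 gene was MCM7, at 1173, 1049 and 1064 CPM under vehicle and 1028, 999 and 999.9 CPM with SNX631 (log2 FC -0.12 ± 0.034 SE, FDR 0.0445). Replicate 1 of that vehicle group, the library that stood apart, was its highest value, and without it the change was -0.07 (FDR 0.379); it also missed the threshold without SNX631 replicate 2 (FDR 0.157) or 3 (0.18). The interval of a single gene's change had a median half-width of 0.09 in both lines.

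The active and kinase-dead lines were also compared directly. The SNX631 effect was lower in dKO-8 than in dKO-8M for PRIM1, SLBP and RRM2, 3 of 44 genes (background 3.61%), and higher for 0 (background 2.58%; 3 at an unadjusted p under 0.05, 0 by DESeq2). It was lower in dKO-19 than in dKO-19M for CDT1 and PRIM1 (background 5.94%) and higher for RRM1 (background 3.93%), shares of 4.5% and 2.3% that lie under the background. The first comparison gave 1 gene without dKO-8 SNX631 replicate 3, and 9 genes (7 lower, 2 higher) when fitted to the compared libraries only. The second comparison gave 7 genes without dKO-19M vehicle replicate 2 and 0 when fitted to the compared libraries only. In the second comparison CDT1 did not pass without dKO-19 vehicle replicate 1 (FDR 0.075) or dKO-19M SNX631 replicate 1 (0.0802), nor PRIM1 without dKO-19 vehicle replicate 3 (0.0645), dKO-19 SNX631 replicate 3 (0.05004) or dKO-19M vehicle replicate 3 (0.0704). For CDT1 in dKO-8 the difference from dKO-8M was -0.12 ± 0.074 SE (FDR 0.401), so that it passed in one line and not in the other without a difference between them that passed. Between the 2 active lines the effect was higher in dKO-19 than in dKO-8 for RFC3 (0.24) and RRM1 (0.16) (background 2.03%) and lower for 0 genes (background 2.74%; 0 at an unadjusted p under 0.05 and by DESeq2). That count of 2 was 1 or 0 without any of 10 of the 12 libraries.

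In CSS, SNX631 acted otherwise on these genes in Rv1-WT than in FBS. In Rv1-WT in CSS 25 genes rose (background 14.2%) and 2 fell (background 12.2%), with a median change of 0.16 and none called at the study cutoffs. Without CSS vehicle replicate 3 or CSS SNX631 replicate 3, 1 gene was called. Of the 25 rises, 17 passed in every fit that left out a library, and the 2 falls, RRM2 (-0.13) and MCM4 (-0.09), did not. This comparison and the CSS effect under vehicle share their 3 CSS vehicle libraries. For that reason E2F2 is given in all 4 groups.

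E2F2 stood at 81.6, 80.1 and 80.9 CPM in FBS under vehicle and 92.9, 97.01 and 97.9 CPM in FBS with SNX631, and at 51.7, 51.1 and 61.3 CPM in CSS under vehicle and 89.6, 77.9 and 74.3 CPM in CSS with SNX631 (log2 FC 0.56 ± 0.053 SE, FDR 6.99e-13 for SNX631 in CSS). The CSS libraries with SNX631 thus lay on both sides of the FBS vehicle values. With SNX631 in both media, E2F2 was still among the genes that CSS lowered. CCNE2 in CSS stood at 28.1, 24.6 and 29.02 CPM under vehicle and 29.8, 41.3 and 34.3 CPM with SNX631 (log2 FC 0.37 ± 0.073 SE, FDR 7.34e-05), below its FBS values given above. TYMS went from 139, 146 and 151 CPM to 172, 194 and 182 CPM (log2 FC 0.33 ± 0.042 SE, FDR 9.13e-09), and PCNA from 229, 238 and 241 CPM to 248, 274 and 272 CPM (log2 FC 0.16 ± 0.045 SE, FDR 0.00404), each still under its FBS level. RFC3, which CSS had not lowered, went from 106, 109 and 108 CPM to 134, 145 and 146 CPM (log2 FC 0.39 ± 0.042 SE, FDR 2.83e-11). GINS4 (0.35), CHAF1B (0.31), POLE2 (0.28), RFC2 and MCM10 (each 0.25), LIG1 (0.24), POLD1, RRM1, GINS3 and PRIM1 (each 0.23), MCM2 and ORC1 (each 0.22), MCM3 (0.20), ORC6 (0.19), POLA2 (0.18), CDC45 (0.17), CDC6 (0.15) and MCM5, MCM6 and FEN1 (each 0.13) rose as well. CDT1 (0.06), MCM7 (0.08), E2F1 (0.08), POLA1 (0.11), CCNE1 (0.24), TK1 (-0.01), SLBP (-0.02) and UHRF1 (-0.09) did not pass.

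Tested directly, the SNX631 effect in Rv1-WT was higher in CSS than in FBS for 14 genes (background 2.2%) and lower for 0 (background 0.93%; 0 at an unadjusted p under 0.05 and by DESeq2), with a median difference of 0.17. PRIM1 went from a fall of 0.16 in FBS to a rise of 0.23 in CSS (difference 0.39 ± 0.076 SE). The count of 14 was 9 without FBS SNX631 replicate 1 or CSS vehicle replicate 2, 8 without CSS vehicle replicate 1 and 7 without CSS SNX631 replicate 2. In Rv1-Luc in CSS 9 genes fell (background 11.8%) and 8 rose (background 12.0%), and no effect there differed from FBS (0 lower, background 0.33%; 0 higher, background 0.18%; 1 and 3 at an unadjusted p under 0.05, and 0 by DESeq2).

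In Rv1-Luc in CSS, CDT1 went from 164, 176 and 170.1 CPM under vehicle to 136, 148 and 133 CPM with SNX631 (log2 FC -0.29 ± 0.052 SE, FDR 1.66e-05), RRM2 from 322, 314 and 316 CPM to 242, 237 and 258 CPM (log2 FC -0.37 ± 0.039 SE, FDR 3.06e-11) and TK1 from 208, 201 and 209.99 CPM to 165, 159.7 and 159 CPM (log2 FC -0.35 ± 0.045 SE, FDR 6.76e-09). None of these 3 pairs of groups overlapped. E2F1 (-0.26), UHRF1 (-0.23), PRIM1 (-0.22), MCM7 (-0.16), CHAF1A (-0.13) and MCM4 (-0.11) fell as well. CHAF1A did not pass without vehicle replicate 1 or 3 or SNX631 replicate 3, nor MCM4 without vehicle replicate 1 or 3 or SNX631 replicate 2 (FDR 0.0555 to 0.102 and 0.0581 to 0.0831). CCNE1 was the 1 gene called, and higher (background 2.45%), from 7.53, 7.26 and 7.39 CPM to 10.8, 10.6 and 12.7 CPM (log2 FC 0.62 ± 0.10 SE, FDR 2.20e-06); without SNX631 replicate 3, its highest library, it was no longer called. RFC3 (0.21), GINS1 (0.17), E2F2 (0.14), MCM10 and BRCA1 (each 0.13), ORC6 (0.12) and RRM1 (0.11) also rose, of which only CCNE1 and RFC3 passed in every fit without a library.

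**Figure D5:**
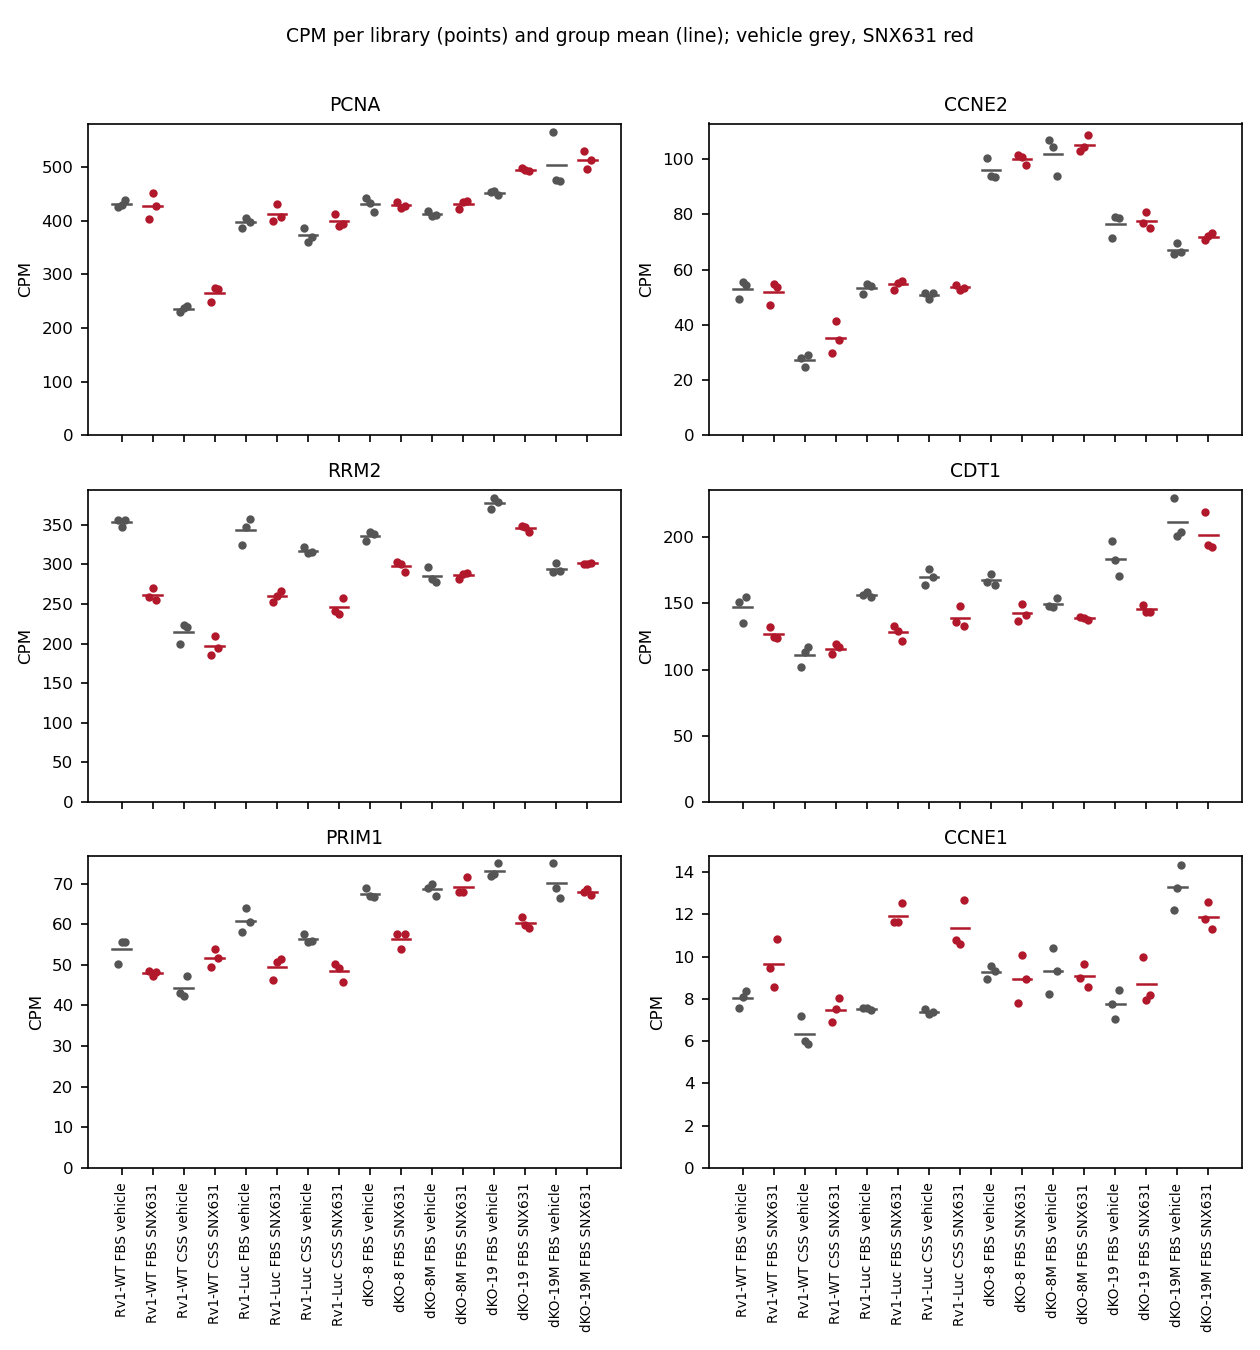
CPM in each of the 48 libraries (points; y axes start at 0) and group means (lines) for PCNA, CCNE2, RRM2, CDT1, PRIM1 and CCNE1, by group (x axis), vehicle in grey and SNX631 in red. PCNA and CCNE2 drop in the 2 CSS groups of Rv1-WT, RRM2, CDT1 and PRIM1 drop with SNX631 where a kinase is active in FBS, and CCNE1 is highest in dKO-19M and in Rv1-Luc with SNX631.

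The lines themselves differed under vehicle. Between the kinase-dead and the active CDK8 line, 9 genes were lower in dKO-8M (background 16.3%) and 3 higher (background 14.1%). MCM7 was lower in dKO-8M (log2 FC -0.23 ± 0.034 SE, FDR 1.40e-07), as were PRIM2 (-0.25), RRM2 (-0.24), MCM3 (-0.17), CDT1 (-0.16), RFC2 (-0.15), SLBP and RFC3 (each -0.12) and MCM5 (-0.11), and GINS4 (0.25), POLE2 (0.21) and TYMS (0.12) were higher. Of these 12, MCM7, PRIM2, RRM2, MCM3 and GINS4 passed in every fit without a library. The shares of 20.5% lower and 6.8% higher members are near or under the background. Each line was transduced separately, so that kinase activity and the line cannot be told apart.

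Between the CDK19 lines 20 genes were higher in dKO-19M (background 15.6%) and 7 lower (background 17.7%). CCNE1 was the 1 gene called (background 3.72%), at 7.77, 7.04 and 8.43 CPM in dKO-19 and 12.2, 13.3 and 14.3 CPM in dKO-19M (log2 FC 0.77 ± 0.097 SE, FDR 2.30e-09), with no overlap. GINS2 (0.35), RFC4 (0.26), POLE2 (0.25), TK1 (0.22) and CDT1 (0.21) were higher. MCM4 was lower, at 512, 512 and 512 CPM against 377, 396 and 380.2 CPM (log2 FC -0.41 ± 0.032 SE, FDR 2.62e-16), although MCM2 (0.15), MCM3 (0.13) and MCM7 (0.12) of the same ring were higher, MCM6 (-0.11) was lower and MCM5 (-0.07) did not pass. RRM2 (-0.36), GINS3 (-0.22), SLBP (-0.20), CCNE2 (-0.19) and TYMS (-0.16) were lower too. MCM6 did not pass without dKO-19 replicate 1 (FDR 0.146) or dKO-19M replicate 2 (0.0733), nor CCNE2 without dKO-19 replicate 2 (0.0533) or 3 (0.0535), and the 7 lower genes are a share of 15.9%, under the background. Of the 20 higher genes 14 passed in every fit without a library. The others did not pass without dKO-19M replicate 1, the library that stood apart. They were MCM7 (0.06, FDR 0.163), PCNA (0.06, FDR 0.23), RFC2 (0.05, FDR 0.426), PRIM2 (0.08, FDR 0.328), POLD1 (0.08, FDR 0.225) and POLD3 (0.13, FDR 0.0703). POLD3 also did not pass without dKO-19 replicate 1 or 3 or dKO-19M replicate 2 or 3.

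Rv1-Luc differed from Rv1-WT in FBS under vehicle in 22 genes, 17 higher (38.6% of the members, background 24.1%) and 5 lower (11.4%, background 28.4%). POLE, the catalytic subunit of polymerase epsilon, stood at 187, 178 and 173 CPM in Rv1-WT and from 246 to 259 CPM in Rv1-Luc (log2 FC 0.49 ± 0.046 SE, FDR 1.14e-13). LIG1 (0.44), CDC45 (0.42), POLA2 (0.37), TK1 (0.33) and MCM3 (0.30) were higher, and RFC3 (-0.34), GINS1 (-0.29), RRM1 (-0.25), TYMS (-0.19) and PCNA (-0.12) lower. Across the 6 lines in FBS under vehicle, the ratio of the highest to the lowest line mean was 1.33 for the median gene, 1.09 for MCM10 and 1.92 for CCNE2, and 5 genes exceeded 1.5. CCNE2 stood at means of 53.1 CPM in Rv1-WT and 53.3 in Rv1-Luc, at 67.2 in dKO-19M and 76.4 in dKO-19, and at 95.9 with wild-type and 101.7 with mutant CDK8. In 22 of the 44 genes all 4 dKO means lay above both parental means, and in 1, GINS4, all lay below; these levels are a description of single lines.

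Related genes outside the 44 were counted in the same fits. In CSS in Rv1-WT under vehicle the background for these lists is again 23.1% of all genes lower and 21.8% higher, and in Rv1-Luc 6.67% and 7.33%. Of 36 other replication genes, 22 fell and 6 rose in CSS in Rv1-WT under vehicle (median -0.27), with CLSPN, a checkpoint mediator, at -0.72, the histone chaperone gene ASF1B at -0.67 and RPA3, of the single-strand binding protein RPA, at -0.64, and with the small polymerase delta subunit POLD4 at 0.71 in the other direction. In Rv1-Luc 7 fell and 1 rose. Of 21 genes of cell cycle entry, 11 fell and 5 rose in Rv1-WT, the latter near the background: CDK2 fell by 0.63, the CDK inhibitor gene CDKN2C by 0.57, and CDKN1B, which encodes the inhibitor p27, rose by 0.72. Of 12 homologous recombination and mismatch repair genes, 10 fell and 0 rose, RAD54L (-0.68) and MSH6 (-0.48) among them. In Rv1-Luc 4 of these 12 fell and 1 rose. With SNX631 in Rv1-WT in CSS, 9 of the 12 rose (background 14.2%) and 0 fell (background 12.2%). In that comparison 9 of the 36 other replication genes rose and 2 fell. Of the 21 genes of cell cycle entry 6 rose and 2 fell.

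In CSS in Rv1-WT under vehicle 7 of 21 genes of mitosis fell and 8 rose (median -0.02), with CCNA2, cyclin A2, at -0.57 and CCNB2, cyclin B2, at 0.39. In Rv1-Luc 9 fell (background 6.67%) and 0 rose (background 7.33%), with a median of -0.13. Tested directly, the CSS effect was lower in Rv1-Luc than in Rv1-WT for 9 (background 15.4%) and higher for 3 (background 18.7%). In Rv1-WT in CSS, SNX631 lowered 12 of the 21 (background 12.2%) and raised 0 (background 14.2%), with a median of -0.17. KIF20A (-0.56) and PLK1 (-0.50) led these falls, in the same libraries in which 25 of the 44 replication genes rose. In FBS with SNX631, 11 of 21 rose (background 6.13%) and 0 fell in dKO-8, and 8 rose (background 9.31%) and 0 fell in dKO-19. In Rv1-WT 2 rose (background 7.68%) and 2 fell (background 6.79%), and in Rv1-Luc 3 rose (background 10.9%) and 3 fell (background 9.45%); 0 moved in dKO-8M and 1 rose in dKO-19M. Tested directly, the effect was higher in dKO-8 than in dKO-8M for 2 of the 21 (background 2.58%) and higher in dKO-19 than in dKO-19M for 2 (background 3.93%). Of 65 replication-dependent histone genes 32 had enough counts; 8 rose and 2 fell in CSS in Rv1-WT (median 0.39), the rises near the background share, with H2AC15 (2.23) and H4C14 (0.99) rising the most and H2AC20 falling by 0.86. Under SNX631 in FBS, 4 of the 21 genes of cell cycle entry fell and 4 rose in Rv1-Luc (background 9.45% and 10.9%). In dKO-8 3 fell and 0 rose (background 7.39% and 6.13%), and in dKO-19 2 fell and 3 rose (background 11.3% and 9.31%). In Rv1-WT 2 fell and 1 rose (background 6.79% and 7.68%), and in the kinase-dead lines 0 moved. The CDK inhibitor gene CDKN1A, which encodes p21, was among the falls in Rv1-Luc (-0.47), dKO-8 (-0.45) and dKO-19 (-0.67).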

How the data were processed

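RNA of 48 cultures was sequenced with a directional library kit. The authors deposited estimated counts per gene, not normalized, in 1 table; the submitters' processing notes name FastQC, cutadapt 2.8, STAR 2.7.2b, featureCounts of Subread 2.0.3 and the builds GRCh38.p13 and GRCm39, without their roles. Of nonzero values 81.6% were whole; the source of the fractions is not given in the sources used here. The expected counts were rounded. Of 61817 entries 2 transgenes were left out.

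Groups follow the sample labels. Counts were fitted in edgeR 4.0.16 (limma 3.58.1, R 4.3.3) with TMM factors and filterByExpr (minimum count 10, total 15), 1 mean per group over all libraries (32 residual degrees of freedom, biological coefficient of variation 4.2%), and quasi-likelihood F-tests. There were 15 comparisons of 2 groups and 7 of 2 effects. DESeq2 1.42.0 and other settings were alternatives. The procedure was tested on simulated data. The members, lists and tests were chosen with earlier results of these data known. Named were a fixed set of core genes, up to 10 further members with the largest change, called members, and members against the majority. Replicate numbers were checked for pairing and used as a block only as an alternative. Cultures are biological replicates by the study's methods. Promoters are RefSeq windows of GRCh38.p14. Figures were drawn with matplotlib 3.10.9.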

Additional observations from a re-analysis of the deposited data

Results flagged for a closer look

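The effects below differed between groups in a direct test of the difference at FDR under 0.05 by edgeR. Values are differences between log2 fold changes.

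Between Rv1-Luc and Rv1-WT the CSS effect under vehicle was unequal in 37 genes, 81.8% of the members higher (background 18.7%) and 2.3% lower (background 15.4%); all 37 passed in every fit without a library. Among the licensing genes the difference, Rv1-Luc minus Rv1-WT, covered ORC1 (0.72), MCM4 (0.59), MCM6 (0.56), CDT1 (0.53), MCM7 (0.50), CDC6 (0.42), MCM2 (0.38), MCM5 (0.31) and MCM3 (0.27). Among the genes of helicase activation it covered GINS1 (0.83), MCM10 (0.62), GINS2 (0.43), GINS4 (0.39), CDC45 (0.32) and GINS3 (0.28). For the clamp and its loader it was found in PCNA (0.78), RFC2 (0.25) and RFC5 (0.20), and for polymerase subunits in POLD1 (0.90), POLE2 (0.58), POLE (0.35), POLA1 (0.34) and POLA2 (0.33). The lagging strand genes LIG1 (0.90) and FEN1 (0.75) and the nucleotide genes TYMS (0.86), RRM2 (0.61), TK1 (0.51) and RRM1 (0.47) differed too. So did the G1/S regulators CCNE2 (0.89), E2F1 (0.62) and E2F2 (0.44) and, in chromatin, CHAF1B (0.66), UHRF1 (0.66), SLBP (0.65) and CHAF1A (0.44). BRCA1 alone differed the other way (-0.28).

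The SNX631 effect in Rv1-WT differed between CSS and FBS in 14 genes, all higher in CSS: CCNE2 (0.40), PRIM1 (0.39), TYMS (0.39), RRM2 (0.31), E2F2 (0.31), LIG1 (0.29), CDT1 (0.28), POLD1 (0.28), E2F1 (0.27), MCM2 (0.24), MCM3 (0.24), TK1 (0.24), FEN1 (0.21) and MCM7 (0.18). That is 31.8% of the members (background 2.2%), and 9 of the 14 lost the call in some fit without a library. The SNX631 effect differed between dKO-8 and dKO-8M in 3 genes, or in 9 when fitted to the compared libraries only. The 3 were lower in dKO-8, namely PRIM1 (-0.27), SLBP (-0.22) and RRM2 (-0.18), 6.8% of the members (background 3.61%). The effect on SLBP and RRM2 was lost in some fit without a library. It differed between dKO-19 and dKO-19M in 3 genes, lower in dKO-19 for CDT1 (-0.27) and PRIM1 (-0.23) and higher for RRM1 (0.17). These shares of 4.5% and 2.3% lie under their backgrounds of 5.94% and 3.93%, both falls were lost in some fit without a library, and the count was 0 when fitted to the compared libraries only. It differed between dKO-19 and dKO-8 in 2 genes, higher in dKO-19 for RFC3 (0.24) and RRM1 (0.16), 4.5% of the members (background 2.03%), both lost in some fit without a library.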

How the results depend on the processing

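Each comparison was repeated with DESeq2, without the filter on low counts, with libraries scaled by total counts alone, fitted to the compared libraries only, and with the replicate number as a block. Of the 22 counts of members at FDR under 0.05, 21 stayed within 1.5 times under DESeq2, 17 without the filter, 21 with total counts, 12 with the compared libraries only and 21 with the replicate block, and no result changed direction with significance. Tested against a 1.5-fold change, the members called became 10 for CSS in Rv1-WT under vehicle, 1 for CSS in Rv1-WT with SNX631, and 0 for SNX631 in Rv1-Luc in FBS, in Rv1-Luc in CSS and for dKO-19M against dKO-19. With the compared libraries only, the counts were 9 for SNX631 in Rv1-Luc in FBS, 6 in dKO-8M and 0 in dKO-19M. They were 3 for CSS in Rv1-Luc under vehicle, 2 with SNX631, 21 for dKO-8M against dKO-8 and 14 for dKO-19M against dKO-19. For the SNX631 effect they were 9 in dKO-8 minus dKO-8M, 0 in dKO-19 minus dKO-19M and 5 in dKO-19 minus dKO-8. These fits have fewer samples behind the spread. Against the main fit some of these counts were higher and others lower, and the cause was not tested. Without the filter they were 10 for SNX631 in Rv1-Luc in CSS, 0 in dKO-19M, 5 for CSS in Rv1-Luc under vehicle, 1 for dKO-19 minus dKO-19M and 0 for dKO-19 minus dKO-8, with more genes in the adjustment. For dKO-19 minus dKO-19M the count was 6 with total counts and 5 with DESeq2; the cause was not tested. The replicate block gave 5 for dKO-19 minus dKO-19M. Same-numbered libraries deviated together at -0.23 to 0.51, with every pair above 0.1 in 2 of 15 comparisons (SNX631 in dKO-19M and CSS in Rv1-Luc with SNX631), where the block changed no call by over 1.5 times.

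Leaving out a library at a time, members called with SNX631 in Rv1-WT in CSS ran from 0 to 1, and in Rv1-Luc in CSS from 0 to 1. Members at FDR under 0.05 ran from 0 to 1 for SNX631 in dKO-19M, 3 to 10 for CSS in Rv1-Luc under vehicle, 1 to 6 with SNX631, 7 to 18 for the SNX631 effect in CSS minus FBS in Rv1-WT, 1 to 3 for dKO-8 minus dKO-8M, 2 to 7 for dKO-19 minus dKO-19M and 0 to 2 for dKO-19 minus dKO-8. The standard error was largest for CCNE1, the member with the lowest mean level (9.24 CPM). It was up to 0.12 in the comparisons of 2 groups, against a median of 0.04 to 0.05 over the members.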
